A study of Arabidopsis thaliana with 20 samples.

Results

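Transcripts encoded in the chloroplast and mitochondrial genomes of Arabidopsis thaliana were examined in RNA-Seq libraries of seedlings exposed to warmth in the morning (AM) or in the evening (PM). The members were all loci whose identifier starts with ATCG (chloroplast genome) or ATMG (mitochondrial genome) and whose count was 10 or higher in 1 or more of the 20 libraries. Of the 33601 loci counted, 118 were members: 87 of 133 chloroplast loci and 31 of 145 mitochondrial loci. Of the loci left out, 21 chloroplast and 71 mitochondrial loci had 0 counts in all 20 libraries.

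All seedlings were wild-type Col-0, 2 weeks old and raised in 12 h of light per day. Seedlings were held at 30 °C (heat) or 23 °C (control) for 1 h from ZT 0.5 (AM) or ZT 12.5 (PM), where ZT is the time in hours after lights on, so that the PM treatment fell in the dark. The 4 groups (AM control, PM control, AM heat, PM heat) had 4 libraries each, and 4 further libraries, 1 per condition, came from seedlings moved to constant light (LL). The labels call the tissue whole plant tissue, whereas the study's methods describe aerial tissue. The libraries were prepared from poly(A)-selected RNA.

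Chloroplast genomes encode core subunits of both photosystems, of the cytochrome b6f complex, of ATP synthase and of an NADH dehydrogenase-like complex, together with the large subunit of Rubisco, ribosomal components and the core of a bacterial-type RNA polymerase. Many of these genes are transcribed together as operons. The bacterial-type polymerase needs sigma factors encoded in the nucleus, and a nuclear-encoded phage-type polymerase transcribes further chloroplast genes. Mitochondrial genomes of plants encode subunits of the respiratory chain, of ATP synthase, of the cytochrome c maturation machinery and of ribosomes, and are transcribed by phage-type polymerases. In both organelles poly(A) tails mark transcripts for degradation, so that a poly(A)-selected library holds a selected part of the organelle RNA.

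Loci are named here by their identifiers, because the count tables and the annotation used do not pair ATCG and ATMG identifiers with gene symbols. A product is given only where the RefSeq annotation of TAIR10.1 states it through a related nuclear gene, which was so for 5 chloroplast and 6 mitochondrial members. Levels are given as CPM (counts scaled to a fixed library total, with the TMM method setting the effective total). No transcript lengths were available, so levels of different loci are not compared with each other, and only their shares of the counts are.

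The 16 light:dark libraries held between 14637914 and 38812441 counts on loci, of which 10416 to 50896 fell on chloroplast and 2018 to 19958 on mitochondrial loci. The constant light libraries held between 8594948 and 19957156 counts. The heat-induced chaperone gene HSP101 was higher after heat by 5.19 in the AM and 5.44 in the PM on the log2 scale. No replicate repeated another library, as replicates of a group differed by 10.8 to 134 times the variance that counting alone gives. Libraries with the same replicate number in different groups deviated together from their group means (mean r = 0.501 over 14816 loci, lowest 0.104). Different numbers of the same pair (1 and 2, or 3 and 4) did so almost as much, at a mean r of 0.481, against -0.491 across the pairs. Since the deviations of each group sum to 0, the negative value largely follows from the positive ones. Fits blocked by replicate number (the replicate block) are given where they changed a call. Numbers 1 and 2 stood apart from numbers 3 and 4 in the organelle shares of the counts in all groups, and most comparisons are therefore also given within these pairs.

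The share of counts on chloroplast loci was between 0.0640% and 0.117% in the 8 libraries numbered 1 and 2, and between 0.139% and 0.342% in the 8 libraries numbered 3 and 4. In each of the 4 groups the chloroplast share was higher in numbers 3 and 4, by between 2.46-fold and 3.15-fold, without overlap. The mitochondrial share was higher in numbers 3 and 4 in each group as well. The difference was 1.81-fold in the AM control, 2.54-fold in the AM heat group, 2.60-fold in the PM heat group and 9.66-fold in the PM control. The labels give no batch for these numbers. For the chloroplast share, the difference between the pairs was larger in each group than each difference between conditions given below. What sets the pairs apart was not tested.

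The chloroplast share of the AM control libraries was 0.117%, 0.115%, 0.342% and 0.238% for replicate numbers 1 to 4, against 0.0667%, 0.0729%, 0.211% and 0.147% in the AM heat libraries. Each AM heat library lay below the AM control library of its number, while the groups overlapped because of the pairs. The difference was -0.72 on the log2 scale (SE 0.56, n = 4 and 4; exact two-sided permutation test p = 0.286). It was similar in both pairs, at -0.74 in numbers 1 and 2 and -0.69 in numbers 3 and 4, with no overlap within either pair. When assignments were permuted only inside the pairs, the exact p was 0.0556, the smallest that this design allows.

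The mitochondrial share was lower after AM heat by more than the chloroplast share. It was 0.0393%, 0.0281%, 0.0825% and 0.0440% in the AM control libraries and 0.00950%, 0.00916%, 0.0278% and 0.0203% in the AM heat libraries, again in the order of the replicate numbers. The 2 groups did not overlap. The difference was -1.59 on the log2 scale (SE 0.52, n = 4 and 4), with the exact two-sided permutation p at its smallest possible value of 0.0286, and 0.171 after Benjamini-Hochberg adjustment over the 12 tests of shares and ratios. It was -1.83 in numbers 1 and 2 and -1.34 in numbers 3 and 4. The ratio of chloroplast to mitochondrial counts was accordingly 7.46 ± 0.41 (SD, n = 4) in the AM heat group and 4.16 ± 1.00 (SD, n = 4) in the AM control, a difference of 0.87 on the log2 scale with the same exact p of 0.0286 and adjusted p of 0.171. Neither result passes the correction, and both turn on 2 mitochondrial loci, as described below.

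In the PM the shares of the heat and control groups overlapped over all 4 replicate numbers. The chloroplast share was 0.129% ± 0.082 in the PM heat group and 0.151% ± 0.091 in the PM control (SD, n = 4; exact two-sided permutation p = 0.743), and it was lower after heat in 2 of 4 replicate numbers. The mitochondrial share was 0.0219% ± 0.0207 against 0.0627% ± 0.0596 (SD, n = 4; exact two-sided permutation p = 0.314). Its difference was -0.19 on the log2 scale in numbers 1 and 2 but -2.08 in numbers 3 and 4, where the groups did not overlap. The pooled value thus rests on the second pair. The ratio of chloroplast to mitochondrial counts was 7.11 ± 2.69 in the PM heat group and 4.18 ± 2.69 in the PM control (SD, n = 4). Its log2 difference was 0.93 (exact two-sided permutation p = 0.143). Within the pairs it was 0.10 in numbers 1 and 2 and 1.76, without overlap, in numbers 3 and 4.

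Between AM control and PM control the 2 pairs moved in opposite directions. In numbers 1 and 2 the mitochondrial share was higher in the AM by 1.51 on the log2 scale, and in numbers 3 and 4 it was lower by -0.91, each without overlap. The pooled exact p for the mitochondrial share was 0.83. The chloroplast share was higher in the AM control in all 4 replicate numbers, by 0.68 in numbers 1 and 2 and 0.32 in numbers 3 and 4 on the log2 scale, with a pooled exact permutation p of 0.486 (n = 4 and 4). Between the heat groups, the chloroplast share differed by -0.01 and the mitochondrial share by -0.16 on the log2 scale (exact permutation p = 1 and 0.83).

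**Figure D1:**
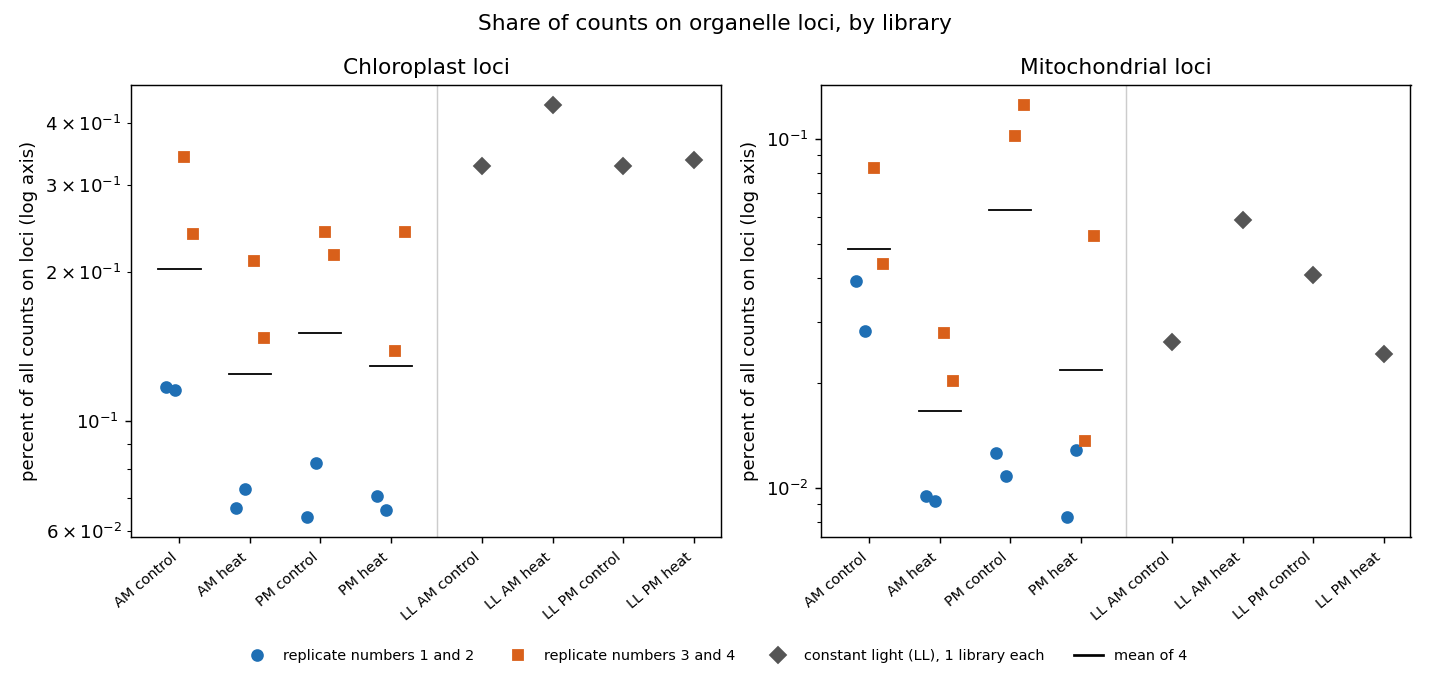
Percent of all counts on loci that fell on chloroplast (left) and mitochondrial (right) loci, on log axes, in each library, with the mean of each group of 4 as a bar. In the light:dark cycle, chloroplast shares of replicate numbers 1 and 2 lie between 0.0640% and 0.117% and those of numbers 3 and 4 between 0.139% and 0.342%. Each light:dark AM heat library lies below the AM control library of its number.

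Single loci were tested with edgeR's quasi-likelihood test across all 21404 loci with at least 10 counts in 1 of the 16 light:dark libraries, with Benjamini-Hochberg adjustment. This filter kept 113 of the 118 members, 86 from the chloroplast and 27 from the mitochondrion. A locus was called when its adjusted p was under 0.05 and its absolute log2 fold change over 0.5. Adjusted p-values given for loci below come from this test.

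The comparison of AM control with PM control asked how the members differed between morning and evening in unstressed seedlings. It gave the most called members in this fit. Of the 113 members tested, 9 were called, all higher in the AM control and all from the chloroplast, which is 7.96% of the members against 28.7% of all loci called in either direction and 14.9% called higher in the AM control. The share of members called was below this background, and no member was called lower. The 86 chloroplast loci had a median log2 difference of 0.45, and 71 of them were above 0, while the median over all loci was -0.07. DESeq2 called 10 members, also all higher, against 30.0% of all loci called in either direction and 16.2% called higher.

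Among the 9 called loci, ATCG00270, ATCG00280 and ATCG00300 carry neighbouring identifiers. ATCG00270 had 67.0, 79.8, 146 and 137 CPM in the AM control libraries and 20.8, 28.7, 29.5 and 32.4 CPM in the PM control libraries, in the order of the replicate numbers. All AM control libraries lay above all PM control libraries. The log2 difference was 1.91 (SE 0.45, adjusted p = 0.00375), with 1.56 in numbers 1 and 2 and 2.15 in numbers 3 and 4. ATCG00280 had 83.2, 82.8, 68.6 and 57.4 CPM in the AM control and 22.7, 29.4, 29.0 and 35.3 CPM in the PM control. The groups did not overlap here either, although the pairs were ordered the other way, with numbers 1 and 2 highest in the AM control (log2 difference 1.30, SE 0.24, adjusted p = 0.000629).

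ATCG00300 had 6.06, 6.56, 18.9 and 13.6 CPM in the AM control and 0.864, 1.47, 5.40 and 5.27 CPM in the PM control. Its groups did not overlap, and within each pair the AM control exceeded the PM control by more than the spread of that pair. The log2 difference was 1.76 (SE 0.59, adjusted p = 0.0305). ATCG00290, which lies between these loci in the numbering, was not called (log2 difference 0.89, SE 0.88, adjusted p = 0.481). It was called with the replicate block, with an adjusted p of 0.00628.

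ATCG00480 had 238, 268, 217 and 297 CPM in the AM control and 136, 187, 46.6 and 55.3 CPM in the PM control (log2 difference 1.23, SE 0.33, adjusted p = 0.00846). Its groups did not overlap, but the size of the difference depended on the pair, at 0.64 in numbers 1 and 2 and 2.30 in numbers 3 and 4. The other 5 called loci, ATCG00070, ATCG00420, ATCG00580, ATCG00780 and ATCG00800, had log2 differences between 0.89 and 1.25 and adjusted p between 0.0169 and 0.0490. ATCG00780 and ATCG00800 belong to a run of consecutive identifiers, ATCG00740 to ATCG00820, in which the other tested loci also had log2 differences above 0 but were not called.

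With the replicate block, 30 members were called in this comparison, all from the chloroplast and all higher in the AM control. This was 26.5% of the members and 34.9% of the tested chloroplast loci, against 34.7% of all loci called in either direction and 17.5% called higher in the AM control. The direction was the same for all 30. Over the members, the share called was below the background for either direction and above the background of loci called higher. Within numbers 1 and 2 alone, 39 members were called, 34 of the chloroplast and 5 of the mitochondrion, and all were higher in the AM control (30.9% of all loci called, 15.7% called higher). Within numbers 3 and 4 alone, 15 members were higher and 3 lower (34.0% of all loci called, 17.5% called higher).

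Most of the loci with the highest counts followed the pairs of replicate numbers in all groups. ATCG00470 had 82.8, 91.8, 496 and 343 CPM in the AM control and 48.4, 63.6, 261 and 207 CPM in the PM control, so that each AM control library was above the PM control library of its number while the groups overlapped widely. Its log2 difference was 0.76 (SE 0.72, adjusted p = 0.457), and 0.71 with the replicate block (adjusted p = 0.00201). ATCG00330 was at 13.5, 13.98, 250 and 141 CPM in the AM control and 9.39, 9.83, 130 and 101 CPM in the PM control, with the pairs far apart. It was called with the block only (0.61, adjusted p = 0.0282), and its log2 difference without the block was 0.69 and turned to -0.20 when AM control replicate 3 was left out. ATCG00020, at 248, 139, 301 and 280 CPM in the AM control and 46.0, 63.4, 212 and 191 CPM in the PM control, differed by 1.81 in numbers 1 and 2 and by 0.49 in numbers 3 and 4, and was likewise called with the block only (1.16, adjusted p = 0.0244). ATCG01130 and ATCG01020, at pooled log2 differences of 0.30 and 0.32, were called in neither fit.

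**Figure D2:**
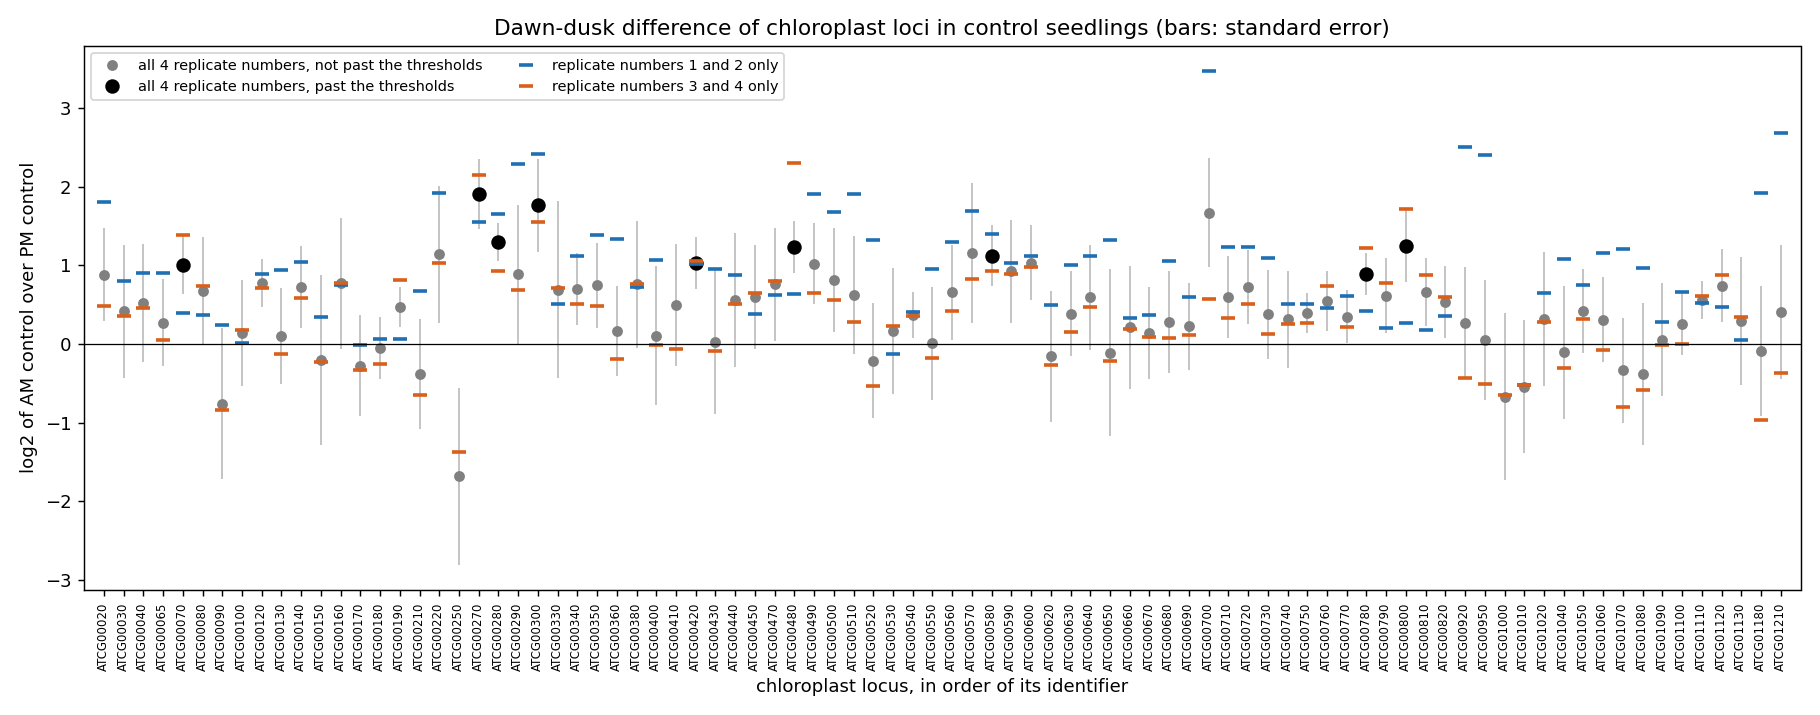
Log2 of AM control over PM control for the 86 tested chloroplast loci in the order of their identifiers, with the fit to all 4 replicate numbers as circles (bars give the standard error) and the fits to each pair of numbers as dashes. The 9 loci past the thresholds are black and all lie above 0, with ATCG00270 highest among them at 1.91.

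Leaving out 1 library changed the number of called members to between 3 and 11. It was 3 without AM control replicate 3, 4 without AM control replicate 4 and 4 without PM control replicate 1 or 2. ATCG00270, ATCG00280 and ATCG00480 stayed called without any 1 of the 16 libraries.

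Between the heat groups, 2 members were called, both higher in the AM heat group, which is 1.77% of the members against 36.9% of all loci. ATCG00300 had 5.35, 5.86, 17.2 and 10.3 CPM in the AM heat group and 1.74, 1.60, 3.58 and 5.60 CPM in the PM heat group (log2 difference 1.62, SE 0.59, adjusted p = 0.0377). The groups overlapped, because the AM heat libraries numbered 1 and 2 lay near the highest PM heat library, but each AM heat library exceeded the PM heat library of its number. The difference was 1.76 in numbers 1 and 2 and 1.59 in numbers 3 and 4. ATMG01080, annotated as subunit 9 of the mitochondrial F0-ATPase, the ring that carries protons through the membrane part of ATP synthase, was higher by 0.78 (SE 0.29, adjusted p = 0.0412). Neither call was stable: no member was called without AM heat replicate 3 or 4 or without PM heat replicate 1 or 2. Of the 2 calls, 1 was kept without AM control replicate 4 or AM heat replicate 1 and 0 without PM heat replicate 3, where 1 other member was called. With the replicate block 7 members were called, all higher in the AM heat group (42.2% of all loci called), and 11 and 3 were called in numbers 1 and 2 (36.6%) and in numbers 3 and 4 (41.3%).

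Heat in the AM raised 1 member past the thresholds, ATMG01080, and lowered none. This is 0.885% of the members, against 13.6% of all loci, and 3 members were called without PM heat replicate 4, which shares the fit. ATMG01080 had 1.00, 0.701, 0.813 and 0.791 CPM in the AM control and 2.17, 1.70, 2.53 and 2.16 CPM in the AM heat group, so each heat library was above each control library. The log2 fold change was 1.39 (SE 0.30, adjusted p = 0.00577), with 1.20 in numbers 1 and 2, where it was not called (adjusted p = 0.0773), and 1.59 in numbers 3 and 4 (adjusted p = 0.0162). These levels rest on 12 to 22 counts per library in the AM control and 37 to 43 in the AM heat group. The annotation names a nuclear relative of this locus, AT2G07671, and reads shared by such copies may be split or lost in the counting. AT2G07671 had 8 to 12 counts in the AM control and 9 to 13 in the AM heat group.

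The chloroplast members after AM heat were mostly below their control levels without passing the thresholds. Of the 86 chloroplast loci, 83 had a log2 fold change below 0, with a median of -0.52 against 0.03 over all loci. Of the 27 mitochondrial loci, 14 were above 0 and 13 below, with a median of 0.03. With the replicate block, 10 chloroplast loci were called lower and none higher, and 2 mitochondrial loci were called lower and 2 higher. The 14 called members are 12.4% of those tested, below the 20.3% of all loci called in that fit. The 10 chloroplast loci had log2 fold changes between -0.57 and -1.97. ATCG00490 had 145, 96.1, 222 and 149 CPM in the AM control and 39.7, 48.4, 93.9 and 58.0 CPM in the AM heat group. These groups did not overlap, and the log2 fold change with the block was -1.35 (adjusted p = 0.0126), against -1.31 (SE 0.52, adjusted p = 0.102) without it. ATCG00750, annotated as ribosomal protein S11 of the small ribosomal subunit, was -0.68 with the block (adjusted p = 0.0449). Numbers 1 and 2 alone gave 5 calls (6.35% of all loci) and numbers 3 and 4 alone gave 10 (20.2%).

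ATMG00020 and ATMG01390 together took between 81.0% and 96.4% of all mitochondrial counts in the 20 libraries, and they were the mitochondrial loci called lower after AM heat with the replicate block. ATMG00020 had 208, 128, 507 and 271 CPM in the AM control and 53.0, 50.1, 156 and 107 CPM in the AM heat group. Every heat library was below the control library of its number, although the groups overlapped. ATMG01390 had 215, 155, 295 and 162 CPM in the AM control and 52.3, 44.8, 113 and 74.8 CPM in the AM heat group, without overlap. With the replicate block, their log2 fold changes were -1.62 (adjusted p = 0.0271) and -1.65 (adjusted p = 0.0193). Without it they were -1.57 (SE 0.81, adjusted p = 0.212) and -1.50 (SE 0.63, adjusted p = 0.120).

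The other mitochondrial loci were described without these 2. Without ATMG00020 and ATMG01390, the mitochondrial counts were 15.8, 13.7, 29.5 and 19.99 CPM in the AM control and 13.8, 15.0, 34.6 and 27.3 CPM in the AM heat group (here relative to all counts, without TMM scaling). The groups overlapped and followed the pairs of numbers. The difference was then 0.16 on the log2 scale (exact two-sided permutation p = 0.743, n = 4 and 4), and the ratio of chloroplast to mitochondrial counts was lower after heat, by -0.87 on the log2 scale (exact permutation p = 0.0286, the smallest possible). The fall of the mitochondrial share after AM heat thus described these 2 loci. ATMG00690, which was called higher with the block (log2 fold change 1.48, adjusted p = 0.00693), had 0.729, 0.536, 1.49 and 0.565 CPM in the AM control and 1.48, 1.95, 3.21 and 2.21 CPM in the AM heat group.

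Besides ATMG01080 and ATMG00690, described above, the most abundant mitochondrial loci after ATMG00020 and ATMG01390 were ATMG01360, ATMG00090, ATMG00660 and ATMG01370. They had at most 6.15 CPM in the light:dark libraries. None of them was called after AM heat, with log2 fold changes between -0.26 and 0.94. Among the annotated mitochondrial loci, ATMG00730, subunit 3 of cytochrome c oxidase, the terminal enzyme of the respiratory chain, had a log2 fold change of -0.00049 (SE 0.45), and ATMG00410, subunit 6 of the ATPase, had 0.26 (SE 0.81).

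**Figure D3:**
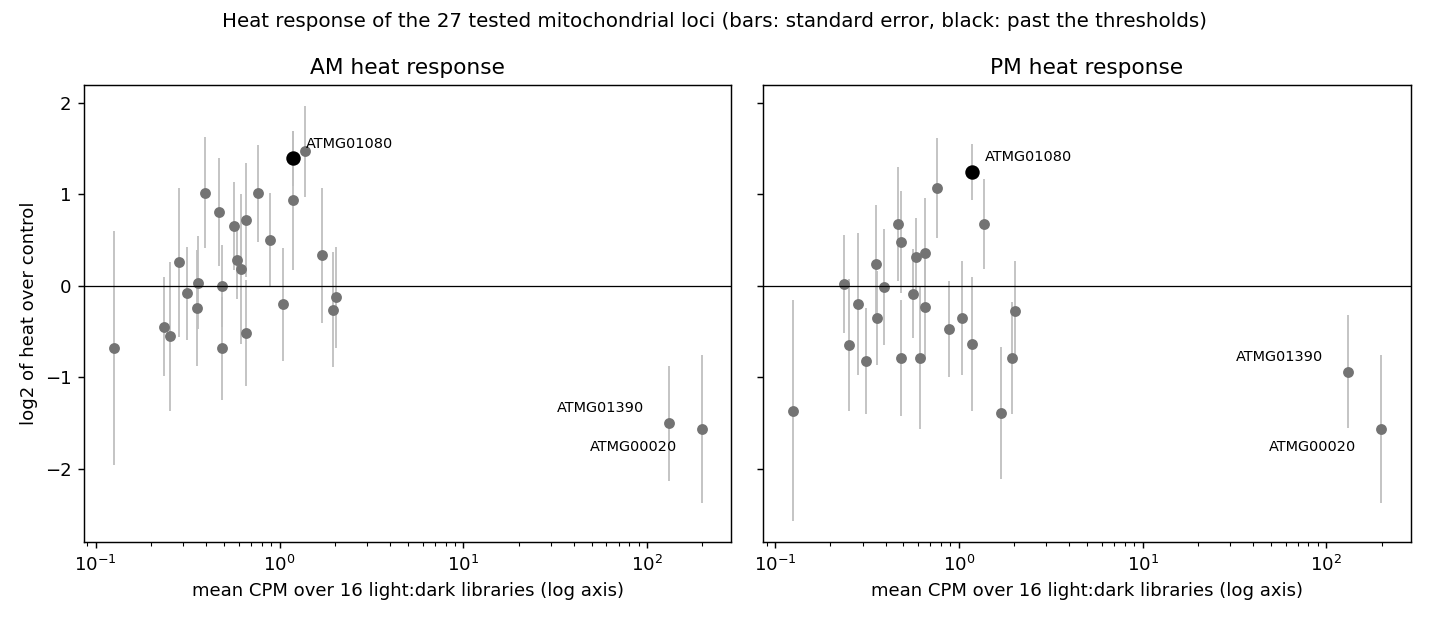
Log2 of heat over control for the 27 tested mitochondrial loci against their mean CPM (log axis), in the AM (left) and the PM (right), with standard errors as bars and loci past the thresholds in black. ATMG00020 and ATMG01390 stand at the far right and lie below 0 in both plots, at -1.57 and -1.50 in the AM, and ATMG01080 lies above 1.

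Markers of roots moved with the AM heat group. Of the 6 root markers, 5 were lower after AM heat past the thresholds (the Casparian strip genes CASP1, CASP2 and CASP4, the endodermis factor MYB36 and SHV2), and EXPA7 was not called. After PM heat 2 of the 6 were lower past the thresholds, CASP4 and SHV2. The summed level of the 6 was between 37.9 and 42.6 CPM in the AM control, 7.66 and 23.2 CPM in the AM heat group, 24.1 and 42.3 CPM in the PM control, and 7.68 and 23.0 CPM in the PM heat group, and none of the 6 was at 0 in these libraries. The summed level of 3 leaf markers (RBCS1A, CAB1 and CAB3) was between 29964 and 45594 CPM in the AM control and 30551 and 38011 CPM in the AM heat group. The part of the root markers in the organelle results was not tested. In these tissue samples fewer cells of a type and less RNA per cell cannot be told apart.

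Heat in the PM also raised ATMG01080 past the thresholds and no other member (0.885% of the members, against 18.2% of all loci). It had 0.360, 0.423, 0.523 and 0.823 CPM in the PM control and 0.919, 0.998, 1.21 and 1.85 CPM in the PM heat group. Every PM heat library was above every PM control library (log2 fold change 1.24, SE 0.31, adjusted p = 0.0115), on 10 to 15 and 15 to 39 counts per library. AT2G07671 had 4 to 14 counts in the PM control and 5 to 15 in the PM heat group. ATMG01080 stayed called in the AM and in the PM without any 1 of the 16 libraries, and it was the only member called in both. In the PM, as in the AM, it was not called in numbers 1 and 2 alone (log2 fold change 1.26, adjusted p = 0.0955) and was called in numbers 3 and 4 alone (1.20, adjusted p = 0.0309). ATMG01090, annotated as subunit 9 of ATP synthase as well, had log2 fold changes of 0.81 in the AM and 0.67 in the PM (adjusted p = 0.399 and 0.463).

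For the other members the PM response depended on the pair of replicate numbers. In numbers 1 and 2 no member was called (3.36% of all loci), and in numbers 3 and 4, 6 were called higher and 15 lower (39.0% of all loci). The block called 4 higher and 4 lower (26.5% of all loci). ATCG00270 had 25.6, 34.3, 77.4 and 106 CPM in the PM heat group, so that only numbers 3 and 4 stood clearly above their PM control libraries. Its log2 fold change was 0.26 (adjusted p = 0.412) in numbers 1 and 2, 1.55 (adjusted p = 0.000346) in numbers 3 and 4, and 0.91 with the block (adjusted p = 0.00925). ATCG00480 likewise stood at 164, 171, 190 and 144 CPM in the PM heat group, with log2 fold changes of 0.05 in numbers 1 and 2 and 1.69 in numbers 3 and 4 (adjusted p = 0.887 and 0.000153). The mitochondrial ATMG00020 had 50.5, 43.9, 520 and 657 CPM in the PM control and 37.8, 59.3, 66.8 and 263 CPM in the PM heat group. It was called lower in numbers 3 and 4 and not in numbers 1 and 2, with log2 fold changes of 0.03 and -1.85 in the pairs (adjusted p = 0.958 and 0.0118).

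Whether the heat response differed between AM and PM was tested as an interaction in the same fit. No member passed an adjusted p of 0.05 (edgeR), against 0.397% of all loci. An unadjusted p under 0.05 was found for 3 members, against 12.4% of all loci. DESeq2 called 1 member, against 2.64% of all loci. ATCG00280 had the lowest p of the members, at 49.8, 48.5, 51.9 and 33.97 CPM in the AM heat group and 28.6, 41.9, 30.0 and 65.0 CPM in the PM heat group. It was lower after heat in the AM and higher after heat in the PM in all 4 replicate numbers (interaction 1.14 on the log2 scale, SE 0.34, adjusted p = 0.162).

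**Figure D4:**
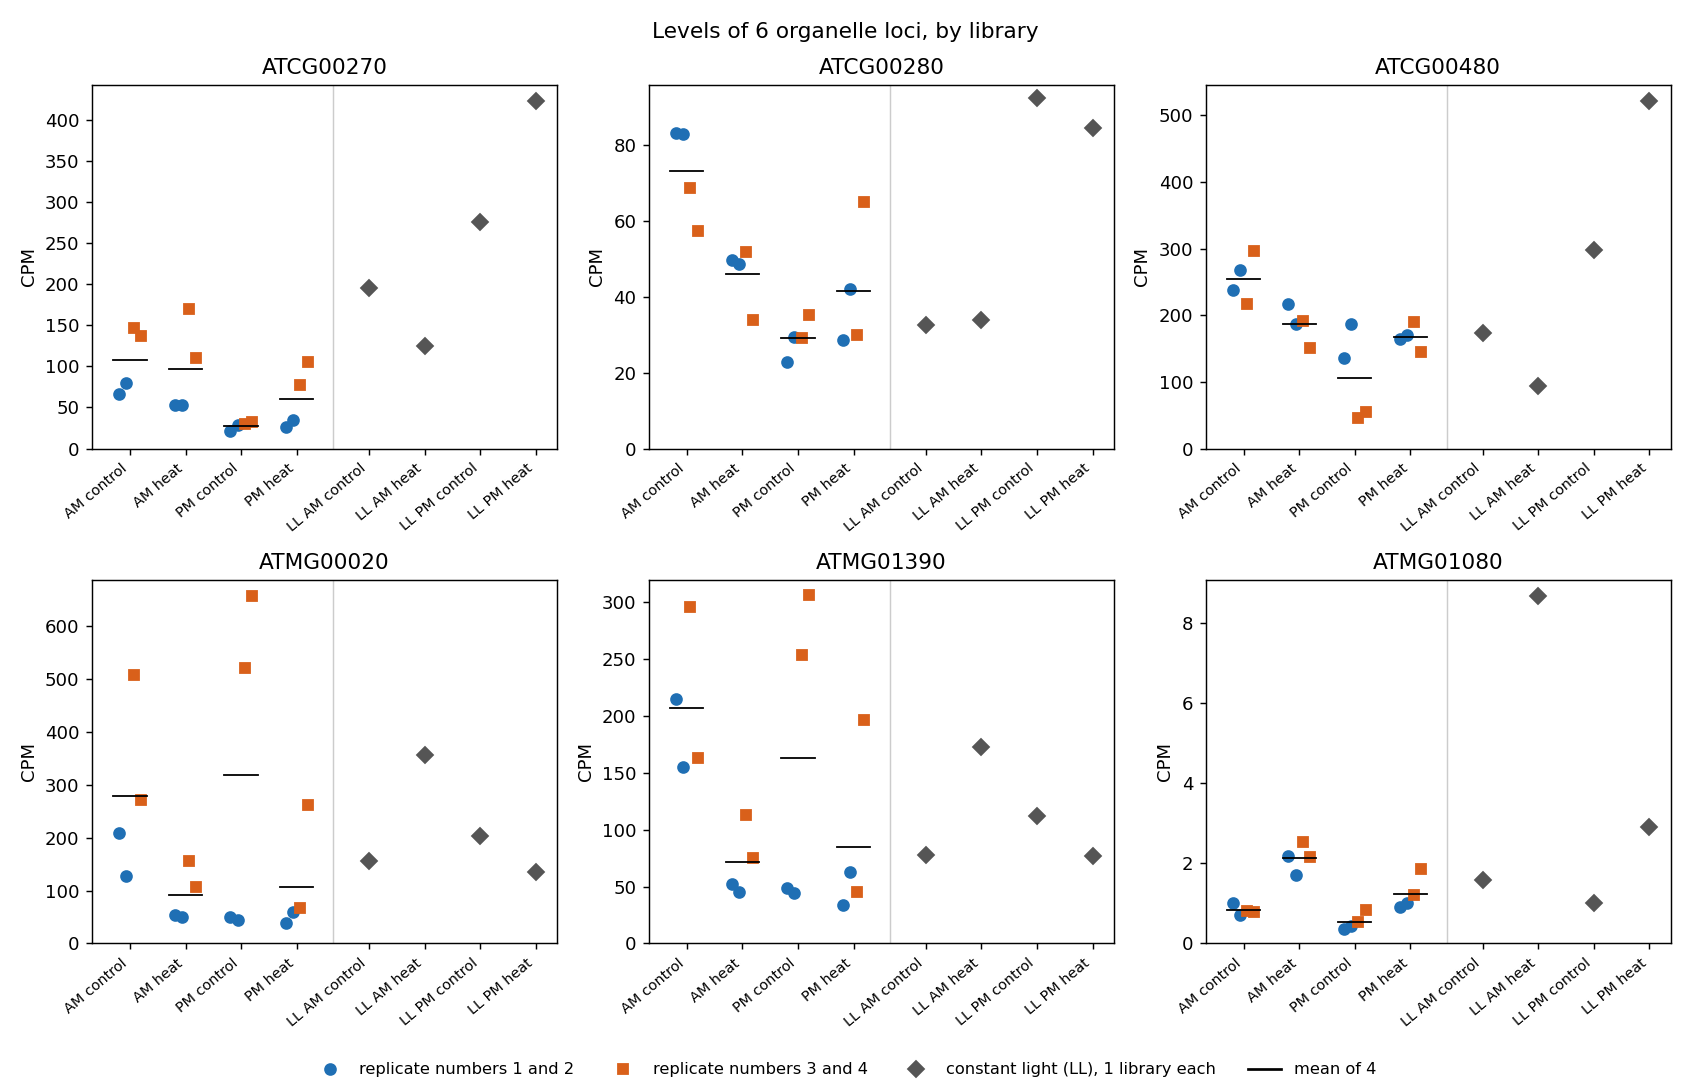
Levels (CPM) of 3 chloroplast and 3 mitochondrial loci in each library, with replicate numbers 1 and 2 as circles, numbers 3 and 4 as squares, constant light libraries as diamonds and group means as bars. In the light:dark cycle, the AM control libraries lie above all PM control libraries for ATCG00270, ATCG00280 and ATCG00480. The constant light controls of these loci are in the opposite order. For ATMG01080, the light:dark heat libraries lie above the light:dark control libraries of the same time.

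To separate a change in a locus from a change in its genome, each locus was also expressed as a share of the counts of its own genome, with 0.5 added to each count. Between AM control and PM control 2 of the 86 chloroplast loci had groups that did not overlap, against 36.9% of all loci with nuclear loci scaled to the nuclear total. They were ATCG00270, at 5.29% and 2.57% of the chloroplast counts (geometric means), and ATCG00300, at 0.524% and 0.231%. The same 2 loci were the ones without overlap between AM heat and PM heat (42.6% of all loci). ATCG00270 had 6.60% and 4.72% there and ATCG00300 had 0.670% and 0.251%. Both comparisons rest on different libraries. The log2 differences of ATCG00300 were 1.18 in the controls and 1.42 in the heat groups, and those of ATCG00270 were 1.04 and 0.48. ATCG00280, in contrast, overlapped on this scale in both comparisons.

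After AM heat, 2 chloroplast loci were higher and 3 lower as shares of the chloroplast counts without overlap (21.1% of all loci). Among those with a mean of at least 5 CPM, ATCG00300 went from 0.524% to 0.670%, ATCG00490 went from 7.62% to 4.40% and ATCG00350 from 1.75% to 1.28%. After PM heat, none was higher and 1 was lower (24.8% of all loci), ATCG00660, annotated as ribosomal protein L20 of the large subunit, at 0.243% in the control and 0.113% after heat. Of the 27 mitochondrial loci, 19 were higher and none lower after AM heat as shares of the mitochondrial counts, with a median log2 difference of 1.48. After PM heat 2 were higher and none lower (24.8% of all loci), with a median of 0.73. In the AM control 4 were lower than in the PM control and none higher (36.9% of all loci). Since ATMG00020 and ATMG01390 held most of the mitochondrial counts, their fall after AM heat raises the share of every other locus.

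The composition of the chloroplast counts also differed between the pairs of replicate numbers. Of the 38 chloroplast loci with a mean of at least 5 CPM, 11 took a higher and 3 a lower share in numbers 3 and 4 than in numbers 1 and 2, without overlap between the 8 and 8 libraries. Of all loci at this minimum level, 4.22% did not overlap between the same libraries, with nuclear loci scaled to the nuclear total. ATCG00330 took between 1.03% and 1.74% of the chloroplast counts in numbers 1 and 2 and between 4.72% and 7.26% in numbers 3 and 4, a mean log2 difference of 2.14. ATCG00480 took between 18.1% and 25.4% in the first pair and between 2.46% and 14.1% in the second. ATCG01130 and ATCG01020 followed ATCG00330, with mean log2 differences of 1.02 and 1.17, whereas the difference of ATCG00020 changed sign between groups, from -0.56 in the AM control to 0.39 in the PM heat group. ATCG00430 took 1.08% to 1.44% in the first pair and 2.53% to 5.18% in the second.

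**Figure D5:**
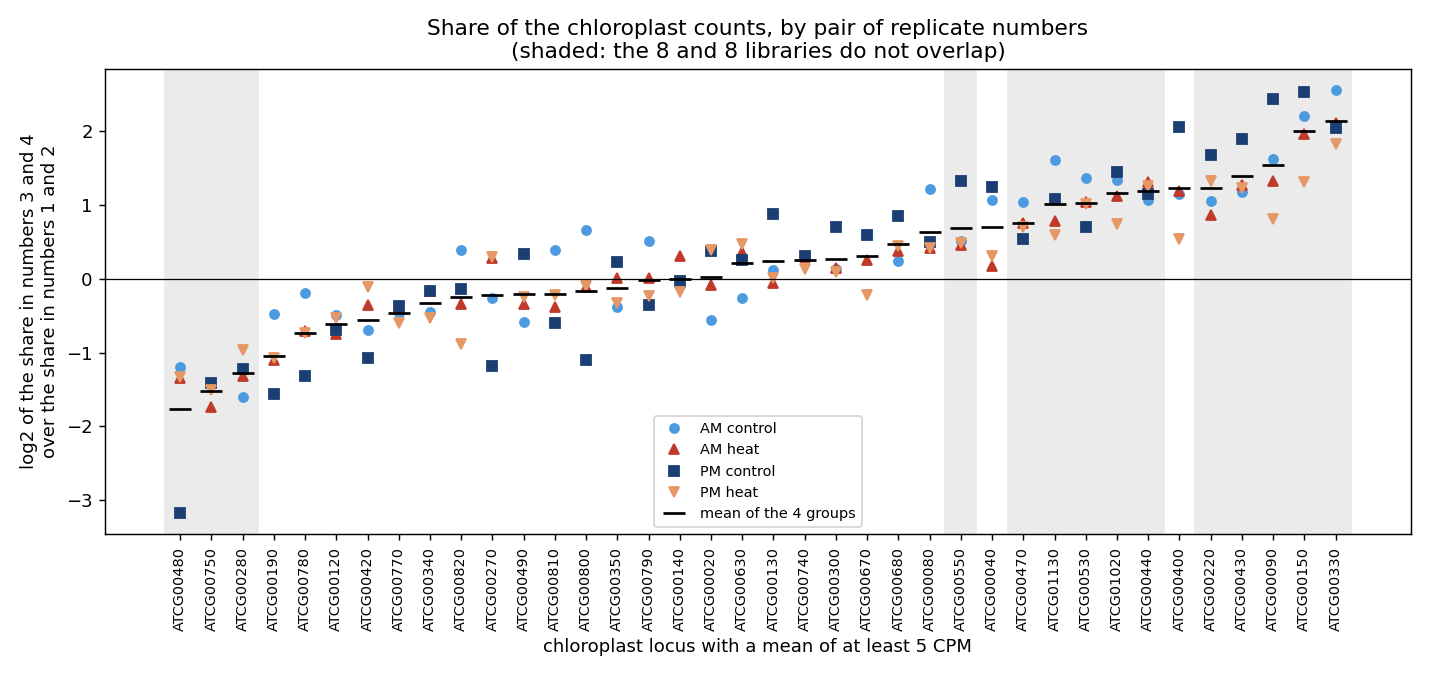
Log2 of the share of the chloroplast counts in replicate numbers 3 and 4 over that in numbers 1 and 2, for the 38 chloroplast loci with a mean of at least 5 CPM, in each of the 4 groups (symbols) and on average (bars). The loci run from ATCG00480 at -1.76 to ATCG00330 at 2.14, and shading marks the 14 loci whose 8 and 8 libraries do not overlap.

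In constant light each condition had 1 library, so no test was possible. The chloroplast share was 0.328% in LL AM control, 0.328% in LL PM control, 0.434% in LL AM heat and 0.337% in LL PM heat, above every light:dark library except AM control replicate 3, which only LL AM heat exceeded. The 95% Wilson intervals, which cover counting error only, were 0.325% to 0.330%, 0.325% to 0.331%, 0.431% to 0.438% and 0.333% to 0.341%. The mitochondrial share was 0.0262%, 0.0409%, 0.0585% and 0.0242% in the same order. ATCG00330 took between 4.53% and 13.1% of the chloroplast counts in these libraries, a range that lies above that of numbers 1 and 2 in the light:dark cycle and reaches beyond that of numbers 3 and 4.

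For 3 of the loci described above, the order of the AM and PM controls in constant light was opposite to that in the light:dark cycle. ATCG00270 had 196 CPM in LL AM control and 276 CPM in LL PM control, ATCG00280 had 32.6 and 92.3 CPM, and ATCG00480 had 173 and 298 CPM, so that all 3 were higher in the PM library. ATCG00300 was higher in the AM library, as in the light:dark controls, at 13.5 against 9.68 CPM. Between these libraries 12 chloroplast loci were higher in the AM and 7 lower by more than 2-fold, of 84 with at least 10 counts in 1 of the 4 libraries (10.6% of all loci past 2-fold, with 0.5 CPM added). After heat in the AM, 18 of 29 mitochondrial loci were higher by more than 2-fold in LL AM heat than in LL AM control and none lower (6.34% of all loci past 2-fold). ATMG01080 stood at 8.65 and 1.58 CPM there, and ATMG00020, at 356 and 156 CPM, was higher after heat, unlike in the light:dark cycle. Of the 84 chloroplast loci, 15 were higher by more than 2-fold in LL AM heat than in LL AM control and 0 lower. Their median log2 difference was 0.65, also unlike in the light:dark cycle. In the PM, 7 of 29 mitochondrial loci were higher by more than 2-fold after heat and none lower (22.8% of all loci past 2-fold), with ATMG01080 at 2.90 CPM after heat and 1.00 CPM in the control. Of the chloroplast loci, 3 were higher and 5 lower past 2-fold in the PM. AT2G07671 had 28 counts in LL AM control and 56 in LL AM heat, in libraries of 19957156 and 12584052 counts, so the nuclear relative was higher as well. The 6 root markers summed to 6.97 CPM in LL AM control, 8.22 CPM in LL AM heat, 16.2 CPM in LL PM control and 3.40 CPM in LL PM heat, with SHV2 at 0 in the last, and their part in these differences was not tested.

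Of 16 nuclear genes for organelle transcription and RNA decay, 3 were higher and 2 lower in the AM control than in the PM control, where 28.7% of all loci were called. The sigma factor SIGE (SIG5), which is known to respond to light and to direct transcription of the photosystem II gene psbD, had a mean of 237 CPM in the AM control and 3.83 CPM in the PM control. The lowest AM control library had 188 CPM and the highest PM control library 5.41 CPM. The log2 difference was 5.91 (SE 0.30, adjusted p = 4.5e-10). SIGA (SIG1), another sigma factor, had 295 and 63.7 CPM (2.18, SE 0.12, adjusted p = 7.76e-10). The RNA-binding protein gene CRB (CSP41B) was higher by 0.60, while RIF10, encoding the chloroplast polynucleotide phosphorylase, and emb2746, encoding a ribonuclease of the RNase J type, were lower by -0.52 and -2.19. Between the heat groups SIGE and SIGA differed by 5.74 and 2.33, and 3 genes of the list were higher and 4 lower in the AM heat group, where 36.9% of all loci were called. None of the chloroplast identifiers is tied here to the name psbD.

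Heat raised 1 of the 16 genes past the thresholds at each time, against 13.6% of all loci called in the AM and 18.2% in the PM. SCA3, a phage-type RNA polymerase of the chloroplast, had 38.4, 62.6, 35.5 and 35.98 CPM in the AM control and 97.5, 132, 91.3 and 119 CPM in the AM heat group (log2 fold change 1.38, SE 0.24, adjusted p = 0.00158). The groups did not overlap. SIGC (SIG3) rose in the PM, from a mean of 68.5 to 114 CPM (0.73, SE 0.13, adjusted p = 0.00163). The means of SIG2 were 127, 133, 82.8 and 89.2 CPM, those of SIG4 59.3, 56.8, 74.1 and 103 CPM, and those of SIGF (SIG6) 129, 128, 110 and 121 CPM, with the AM control and AM heat means before those of the PM control and PM heat groups. In constant light SIGE stood at 121 CPM in LL AM control and 69.3 CPM in LL PM control, closer together than in the light:dark cycle.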

How the data were processed

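Poly(A)-selected RNA of 20 seedling samples was sequenced. The deposited values are raw read counts, 1 per locus and library. To obtain them, the authors aligned reads to TAIR10 with TopHat2 2.1.0, counted them with HTSeq 0.6.0 on the reverse strand and applied no normalization. A read shared by near-identical copies may be lost in this counting. Groups and replicate numbers came from the labels.

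From the counts, edgeR 4.0.16 in R 4.3.3 (TMM, glmQLFit, glmQLFTest, 1 fit of the 4 light:dark groups, loci with at least 10 counts in 1 library) gave fold changes, and Benjamini-Hochberg adjustment ran over all loci. Standard errors were obtained by dividing the size of the log2 fold change by the root of the F statistic. Shares were tested as log2 values with exact two-sided permutation tests in Python 3.11.15 (numpy 2.4.6). The replicate numbers were used as a block, since every correlation of same-numbered libraries exceeded 0.1. The mean correlation of different numbers inside a pair was 0.481, near the 0.501 of same-numbered libraries. Matching by number beyond the pair is therefore not shown. Whether replicates are separate cultures is not stated in the labels, so p-values measure the spread between these samples. The functions were tested on simulated data.

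The members and lists were chosen with earlier results of these data known. Named loci were those with the most counts (10 chloroplast, 8 mitochondrial), up to 3 called rises and falls per comparison, the same for shares of a genome in loci of at least 5 CPM, and SIG1 to SIG6. Others were named after their values were seen. The lists of operons and complexes, written by gene symbol, could not be applied because the identifiers are not paired with symbols in the sources used here. Alternatives were DESeq2 1.42.0, RLE, TMM over nuclear loci, other filters, blocks, pairs of replicate numbers and left-out libraries.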

Additional observations from a re-analysis of the deposited data

Results flagged for a closer look

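Libraries that stood far from the rest of their group were sought with Dixon's ratio in 120 groups of 4, where chance flags about 1 group in 20. The 4 groups marked are fewer than that rate gives. All 4 marks fell on PM heat replicate 4. They were not independent, as ATMG00020 held 53.6% of the mitochondrial counts of that library. The mitochondrial share of that library was 0.0528%, against 0.00827% to 0.0136% in the other PM heat libraries. ATCG00020 had 439.5 CPM there, against 62.7 to 115 CPM in the others, ATCG00490 had 158.5 CPM against 38.6 to 46.4 CPM, and ATMG00020 had 262.7 CPM against 37.8 to 66.8 CPM. Whether this library differs beyond chance, and why, was not tested.

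A further 3 measures moved in opposite directions in all 4 replicate numbers. ATCG00280 differed by a mean of -26.95 CPM between AM heat and AM control and by 12.3 CPM between PM heat and PM control. The interaction in edgeR's fit was 1.14 on the log2 scale with an adjusted p of 0.162, and 1.12 with an adjusted p of 0.0841 with the replicate block. ATMG00660 differed by 0.2679 CPM in the AM and by -1.83 CPM in the PM, with an interaction of -1.72 and an adjusted p of 0.544. The nuclear sigma factor gene SIGC (AT3G53920) was higher by 15.05 CPM in AM control than in PM control and by -27.7 CPM, that is lower, in AM heat than in PM heat. The same contrast taken as an interaction was 0.66 on the log2 scale, with an adjusted p of 0.132. None of the 3 passed the threshold of 0.05 in these fits.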

How the results depend on the processing

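The counts of called members depended most on how the pairs of replicate numbers were treated. With the replicate block, 14 members were called for AM heat (2 higher, 12 lower), 8 for PM heat, 30 between the controls and 7 between the heat groups, against 1, 1, 9 and 2 without it. With the pair of numbers as the block they were 16, 10, 31 and 7, and 1 for the interaction (20.9%, 26.9%, 35.1%, 42.5% and 5.14% of all loci). Numbers 1 and 2 alone gave 5, 0, 39 and 11, and numbers 3 and 4 alone gave 10 and 21 for heat, 18 between the controls and 7 for the interaction (10.7% of all loci). DESeq2 called 3 members for AM heat, 2 for PM heat and 1 for the interaction (15.8%, 20.9% and 2.64%). Without a filter 1 member was called between the heat groups (30.4%). The cause was not tested. RLE size factors, TMM over nuclear loci and a mean of at least 1 CPM left each count of called members within 1.5 times. Leaving out 1 library gave between 1 and 3 members for AM heat, 1 and 2 for PM heat, 3 and 11 between the controls, 0 and 3 between the heat groups and 0 throughout for the interaction. For ATCG00330 between the controls, these values ranged from -0.20 (without AM control replicate 3, a reversal) to 1.34.

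For the shares, the replicate block and the pairs only restrict the permutations, so the differences stay the same by construction and only p can change. For the fall of the mitochondrial share after AM heat (-1.59) and the rise of the ratio (0.87), the exact permutation p was 0.125 with the replicate block and 0.0556 inside pairs. Each is the smallest possible, and these designs cannot pass 0.05. For the same reason, no other share could become called in them. Without the most abundant locus of each genome the ratio was 0.68 (exact p = 0.0571). Without the 2 most abundant mitochondrial loci, an alternative chosen after seeing the data, the mitochondrial share was 0.16 for AM heat, -0.12 between the controls and 0.31 between the heat groups, and the ratio was -0.87 for AM heat and -0.32 between the heat groups, all reversed, since these loci held most of the counts. With 1 library left out, log2 differences of the chloroplast share ranged from -1.03 to -0.41 (AM heat), -0.57 to 0.10 (PM heat), 0.16 to 0.80 (controls) and -0.32 to 0.36 (heat groups). Those of the mitochondrial share ranged from -1.89 to -1.29, -1.71 to -0.54, -0.28 to 0.89 and -0.49 to 0.40, and those of the ratio from 0.72 to 1.01, 0.58 to 1.29, -0.14 to 0.57 and -0.039 to 0.35, in the same order. The alternative without ribosomal and transfer RNA loci was not run, because the identifiers are not paired with gene types here.

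Low counts limit the mitochondrial results: 22 of 31 mitochondrial members had a mean under 1 CPM, and 14 of 87 chloroplast members did. Of the mitochondrial loci with a nuclear relative named in the annotation, 8 of 53 were members, against 23 of 92 without one. The part of depth, of shared reads lost in the counting and of poly(A) selection in these low counts was not tested.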
